A study of Mus musculus with 18 samples.

Results

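The transcripts examined here are those of 10 genes of the inflammasome and pyroptosis pathway in bone marrow-derived macrophages (BMMs): Nlrp3, Aim2, Nlrc4, Naip2, Naip5, Nek7, Pycard, Casp1, Casp4 and Gsdmd. They were found by their symbol among the 20999 protein-coding genes of the deposited comparison tables and matched by Ensembl identifier to the 38887 genes with a value in every library. All 10 were found, and all 10 had enough reads to be tested in every comparison.

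RNA-seq was performed on BMMs from female C57BL/6J mice of 3 genotypes, each left untreated or treated with 100 ng/ml LPS, the endotoxin of Gram-negative bacteria, for 4 h. GILZ, the glucocorticoid-induced leucine zipper encoded by Tsc22d3, is a mediator of glucocorticoid effects, and the comparisons ask how its loss or excess changes macrophage transcripts. Each of the 6 groups had 3 libraries. WT animals were B6.129P2-Lyz2tm1(cre)Ifo/J mice, which express Cre from the endogenous Lyz2 promoter of myeloid cells. GILZ KO animals carried the same Cre allele and loxP sites around exon 6 of Gilz. GILZ TG animals carried the Cre allele and a Gilz-1 cDNA in the ROSA26 locus behind a loxP-flanked stop cassette, in a line whose name also holds EGFP. By these descriptions the Lyz2-Cre allele was shared by all 6 groups, but the number of its copies is not given in the sources used here. The mice were 10 to 23 weeks old. The cells had been differentiated for 6 days with 50 ng/ml M-CSF.

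Between 14583055 and 38557029 reads per library were assigned to genes. Both ends of this range were LPS libraries, with 14583055 to 22640548 reads in GILZ KO and 20757976 to 38557029 in GILZ TG. WT libraries after LPS had 22888219 to 26614977. Tsc22d3, the targeted gene, was at 14.9 to 18.8 TPM (a level per transcript length, scaled to the same total in every library) in untreated WT, at 1.89 to 2.81 TPM in GILZ KO and at 152 to 159.8 TPM in GILZ TG libraries. After LPS the WT level was 4.56 to 5.81 TPM, and the difference of GILZ KO from WT did not pass the test (log2 fold change -0.69, adjusted p = 0.15, edgeR). Lyz2 was at 6766 to 15401 TPM in WT but at 17.2 to 70.3 TPM in GILZ KO and GILZ TG, so that in every comparison with WT a difference in GILZ and a difference in Lyz2 cannot be told apart. Whether the WT animals of these libraries carried the Cre allele in the same dose as the others was not tested. The 8 macrophage markers summed to 3920 to 5090 TPM in all libraries. In both treatments, preparations 1 and 2 of GILZ TG stood apart from the other libraries. Their 9 stromal fibroblast markers summed to 83.1 to 119.5 TPM, against 10.5 and 10.6 TPM in preparation 3 and 5.21 to 22.4 TPM in WT and GILZ KO. Markers of B cells and of the neutrophil lineage were higher in them as well, at 81.7 to 157.8 TPM and 188.3 to 518.4 TPM, against at most 35.5 TPM and 77.9 TPM in WT and GILZ KO. Preparation 3 was closer to those, but its neutrophil-lineage sum (70.1 TPM untreated and 85.5 TPM after LPS) and its B cell sum were still above those of every WT and GILZ KO library of the same treatment. The main results that rest on GILZ TG were therefore computed without these preparations as well, with the remaining library assumed to vary like the other groups. Since 1 GILZ TG library per treatment remains in these fits, only their effect sizes are given. In bulk RNA, fewer cells of a type and less RNA per cell cannot be told apart.

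Inflammasomes are cytosolic complexes in which a sensor that has met a microbial or danger signal recruits, mostly through the adaptor ASC, the protease caspase-1. Caspase-1 matures IL-1β and IL-18 and cleaves gasdermin D, whose released fragment forms pores in the plasma membrane and causes the lytic cell death called pyroptosis, and caspase-11, which binds LPS in the cytosol, cleaves gasdermin D directly. In macrophages, sensing of LPS by TLR4 is known as the priming step, in which transcription of sensors and substrates rises before a second signal assembles the complex.

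The 250 bases upstream of the RefSeq start site (GRCm38.p6) are shown for Nlrp3 and Casp4, which had the largest responses to LPS in WT and GILZ KO, and for Casp1, the neighbour of Casp4 on chromosome 9. All 3 are printed for the plus strand, 5′ to 3′, with matches to the NF-κB consensus on either strand in capitals.
Nlrp3, chr11:59541319-59541568: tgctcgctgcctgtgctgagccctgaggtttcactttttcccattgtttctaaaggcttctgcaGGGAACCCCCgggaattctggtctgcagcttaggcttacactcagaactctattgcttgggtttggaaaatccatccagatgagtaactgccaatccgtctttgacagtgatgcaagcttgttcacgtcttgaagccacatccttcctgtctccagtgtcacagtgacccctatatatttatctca
Casp4, chr9:5308599-5308848: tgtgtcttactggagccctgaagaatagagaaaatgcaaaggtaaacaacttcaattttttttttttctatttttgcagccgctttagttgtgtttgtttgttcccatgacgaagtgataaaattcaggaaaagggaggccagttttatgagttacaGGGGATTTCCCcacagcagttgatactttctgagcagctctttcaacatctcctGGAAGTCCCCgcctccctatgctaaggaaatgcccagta
Casp1, chr9:5298267-5298516: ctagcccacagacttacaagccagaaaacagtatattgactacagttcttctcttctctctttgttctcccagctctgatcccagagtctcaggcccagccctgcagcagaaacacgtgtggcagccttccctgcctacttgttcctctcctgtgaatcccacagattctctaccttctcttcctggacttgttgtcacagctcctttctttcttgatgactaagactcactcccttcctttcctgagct

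Promoter windows of 300 bases (250 before and 50 after the start) were found for 9 of the 10 genes, 11 windows in all, since Nlrp3 and Casp4 each had a pair of start sites. Both strands were searched. The NF-κB consensus was found in 5.8% of all 32851 windows, and among these genes in both windows of Casp4 and 1 window of Nlrp3. In Casp4 3 matches were found, of which the first 2 overlap, between 93 and 83 and between 39 and 30 bases before the start. The PU.1 motif GAGGAAG, present in 13.6% of all windows, was found in Aim2, Pycard and the second Nlrp3 window. No window of these genes held the letters of the interferon-stimulated response element GAAANNGAAA (3.44% of all windows), the AP-1 motif TGANTCA (7.81%) or the STAT motif TTCNNNGAA (8.3%). The TATA box letters TATAAA (13.6%) were found in Naip5 alone, on the strand opposite to the gene, at positions -236 to -231 from the start. These matches are descriptions of letters and not of bound sites.

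The windows shown next are those of Naip2 and Naip5, neighbouring genes on the minus strand of chromosome 13. Both genes were higher in GILZ KO than in GILZ TG BMMs without treatment, and part of their reads cannot be told from those of other Naip genes. Stretches of at least 12 bases that are identical in both windows are in capitals, printed 5′ to 3′ on the strand of the genes.
Naip2, chr13:100202123-100202372: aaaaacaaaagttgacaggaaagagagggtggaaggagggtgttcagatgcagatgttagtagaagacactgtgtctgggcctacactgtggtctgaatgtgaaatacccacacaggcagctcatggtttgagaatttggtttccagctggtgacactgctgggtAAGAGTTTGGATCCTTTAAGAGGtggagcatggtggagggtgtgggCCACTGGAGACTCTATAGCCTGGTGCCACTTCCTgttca
Naip5, chr13:100247337-100247586: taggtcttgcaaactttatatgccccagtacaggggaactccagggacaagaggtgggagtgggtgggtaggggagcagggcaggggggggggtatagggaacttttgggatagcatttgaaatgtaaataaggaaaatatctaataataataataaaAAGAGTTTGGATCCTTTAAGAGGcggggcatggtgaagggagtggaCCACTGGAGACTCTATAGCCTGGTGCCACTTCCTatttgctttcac

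Of the 250 bases, 57 lay in such stretches, the longest of 34 bases. The transcripts themselves are also alike. Of all 75-base words in annotated Naip2 transcripts, 10.7% were found in transcripts of other genes too, mainly Naip1, Naip3 and Naip5, and 23.8% of those of Naip5, mainly in Naip6 and Naip3. For the other 8 genes the share was 0%. Accordingly, the counts of Naip2 and Naip5 were not whole numbers in 18 of 18 libraries (tolerance 0.005), as reads were divided among the copies, whereas those of the other 8 genes were whole in all libraries. Values of Naip2 and Naip5 are uncertain to that extent.

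The first comparison was that of LPS with no treatment within each genotype. After LPS the sensors Nlrp3 and Aim2, both inflammatory caspases and the pore former Gsdmd rose in WT, GILZ KO and GILZ TG BMMs, with log2 fold changes from 1.55 to 3.63 on counts scaled by TMM. Naip2 and Naip5, the sensors of bacterial rod protein and flagellin, rose less, by 0.78 to 1.14. On this scale 9 of the 10 genes were higher with LPS in WT, 8 in GILZ KO and 9 in GILZ TG, and none was lower. Among all genes tested, 33.5%, 33.2% and 33.6% were called higher and 35.1%, 35.4% and 35.1% lower. The log2 fold changes in GILZ TG were also computed without its preparations 1 and 2. Nlrp3, Aim2, Casp1, Casp4 and Gsdmd were then at 3.24, 3.35, 2.93, 3.53 and 1.41, and Pycard was at 0.16. The median log2 fold change of the 10 genes was 1.33, 1.20 and 1.35 in the 3 genotypes, against -0.02 over all 13169 genes in each.

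The scale matters for this comparison. TMM assumes that most genes do not change and placed the median of all genes near 0, whereas on log2(TPM + 1) the median of all genes was -0.51 in WT, -0.52 in GILZ KO and -0.51 in GILZ TG, and of all calls 19.8%, 18.8% and 19.3% were increases, against 48.9%, 48.4% and 48.9% with TMM. With limma on that scale, 7, 5 and 7 of the 10 genes were higher with LPS in WT, GILZ KO and GILZ TG, beside 16.1%, 15.3% and 15.6% of all genes. Another 2, 3 and 2 were lower, beside 65%, 66.1% and 65.2%. The 50 most abundant genes held 16.6% to 18.1% of the reads of untreated libraries and 19.4% to 20.7% after LPS, and their part in the shift was not tested. Nlrp3, Aim2, Casp1, Casp4 and Gsdmd rose on both scales in every genotype. Nek7 and Pycard were above 0 on TMM counts in all genotypes but below 0 in TPM, except for Nek7 in GILZ TG (0.01), and Nlrc4 passed the test in TPM alone, where it was lower.

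**Figure D1:**
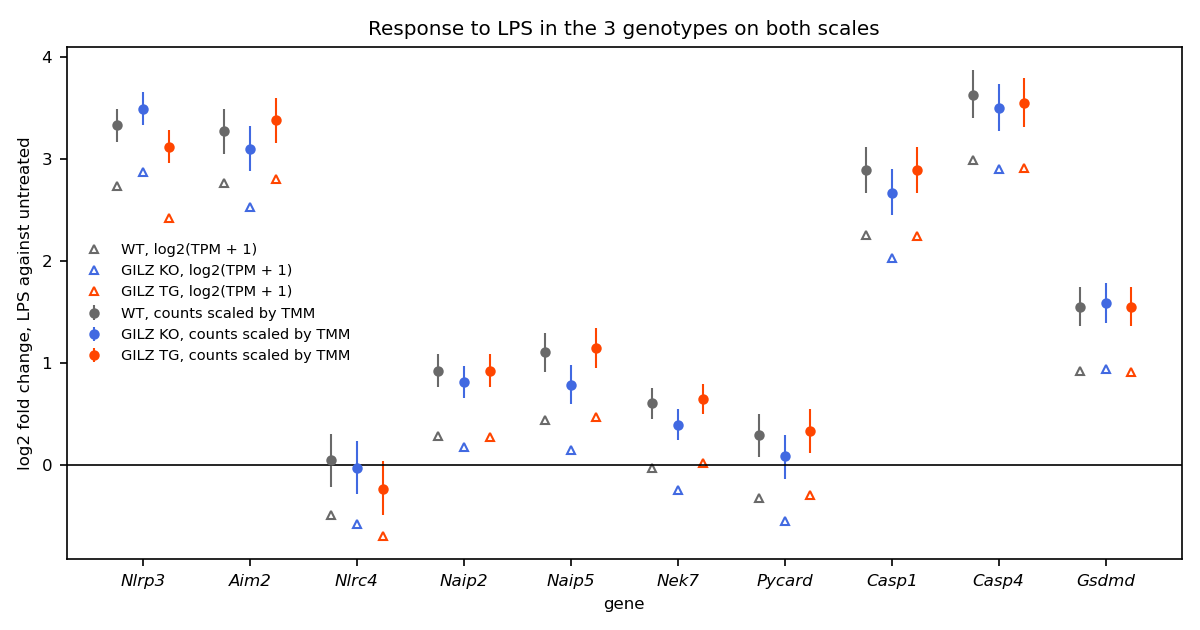
Log2 fold change of each gene after LPS (y axis) in WT, GILZ KO and GILZ TG, from counts scaled by TMM (filled points, 95% intervals) and from log2(TPM + 1) (open triangles). Nlrp3, Aim2, Casp1, Casp4, Gsdmd, Naip2 and Naip5 lie above 0 on both scales, whereas Pycard and Nlrc4 lie below 0 on the TPM scale in all genotypes, and Nek7 in WT and GILZ KO.

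Among the sensors, Nlrp3 (ENSMUSG00000032691, chr11:59541568-59566956, GRCm38), which responds to potassium loss and membrane damage, was at 66.1, 69.6 and 65.7 TPM in untreated WT and at 458.9, 463.9 and 427.0 TPM after LPS. The corresponding libraries of GILZ KO had 61.7, 72.0 and 65.7 TPM and 500.5, 500.9 and 470.5 TPM. In GILZ TG the values were 89.7, 87.6 and 86.6 TPM without and 476.0, 437.8 and 513.9 TPM with LPS. All LPS libraries lay above all untreated ones, and the untreated GILZ TG libraries were the highest of the untreated. The log2 fold change was 3.33 ± 0.08 (SE) in WT, 3.49 ± 0.08 in GILZ KO and 3.12 ± 0.08 in GILZ TG (adjusted p at most 9.53e-16, edgeR, n = 3 per group).

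Aim2 (ENSMUSG00000037860, chr1:173350879-173466040), the sensor of cytosolic DNA, overlaps Cadm3 on the other strand, and whether reads were counted by strand is not given in the sources used here. Its level was 37.4, 42.0 and 42.7 TPM in untreated WT and 298.6, 269.4 and 275.0 TPM after LPS. GILZ KO had 45.6, 47.4 and 38.9 TPM without and 243.4, 289.5 and 244.7 TPM with LPS, and GILZ TG 38.8, 36.0 and 46.9 TPM and 282.7, 277.8 and 301.8 TPM. Thus treated and untreated libraries were far apart while the genotypes overlapped within each treatment. Log2 fold changes were 3.27, 3.10 and 3.38 in WT, GILZ KO and GILZ TG (SE 0.10 each, adjusted p at most 5.31e-14, edgeR).

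Nlrc4 (ENSMUSG00000039193, chr17:74425438-74459142) is the protein through which ligand-bound NAIPs recruit caspase-1, and it was the gene with the lowest level of the 10. Untreated WT libraries had 7.07, 6.90 and 5.79 TPM and LPS libraries 4.96, 3.70 and 4.44 TPM. The level was 7.98, 7.81 and 7.65 TPM in untreated GILZ KO and 5.87, 4.28 and 4.62 TPM after LPS. GILZ TG libraries held the lowest values, with 5.18, 5.43 and 5.75 TPM untreated and 2.56, 3.59 and 2.85 TPM after LPS. The treated libraries were below the untreated ones in each genotype on TPM, whereas on TMM counts no LPS effect passed the test in any genotype (log2 fold change 0.04, -0.03 and -0.24, SE 0.12, lowest adjusted p = 0.103, edgeR). On log2(TPM + 1) the changes were -0.50, -0.58 and -0.70 (adjusted p at most 0.00144, limma), and relative to the median of all genes on that scale they were 0.01, -0.07 and -0.19. Without GILZ TG LPS replicate 2 the TMM value of GILZ TG was -0.36 (adjusted p = 0.0255, edgeR).

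Naip2 (ENSMUSG00000078945, chr13:100144063-100202092), the sensor of the inner rod protein of bacterial secretion systems, was at 36.7, 36.4 and 29.5 TPM in untreated WT and 44.3, 37.3 and 42.9 TPM after LPS. It was at 37.8, 38.8 and 35.0 TPM and 43.7, 41.8 and 40.2 TPM in GILZ KO, and at 26.9, 25.5 and 28.1 TPM and 32.5, 31.9 and 33.2 TPM in GILZ TG. Each genotype was higher with LPS without overlap, yet the 3 treated GILZ TG libraries did not reach the highest untreated WT libraries. The log2 fold change on TMM counts was 0.92, 0.81 and 0.92 (SE 0.08, adjusted p at most 5.01e-08, edgeR), and on log2(TPM + 1) it was 0.28, 0.17 and 0.27, of which that of GILZ KO did not pass the test (adjusted p = 0.0725, limma).

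Naip5 (ENSMUSG00000071203, chr13:100211739-100246323), the flagellin sensor, had 12.5, 12.1 and 11.8 TPM in untreated WT and 17.6, 15.0 and 17.9 TPM after LPS. Its values were 15.7, 15.7 and 14.5 TPM and 17.0, 17.5 and 16.3 TPM in GILZ KO, and 10.9, 9.53 and 11.2 TPM and 13.5, 14.7 and 16.9 TPM in GILZ TG. The untreated libraries of the 3 genotypes did not overlap, with GILZ KO highest and GILZ TG lowest, whereas after LPS all 3 overlapped. Log2 fold changes were 1.10, 0.78 and 1.14 on TMM counts (SE 0.09, adjusted p at most 7.98e-07, edgeR), and 0.44, 0.14 and 0.47 on log2(TPM + 1), where GILZ KO did not pass the test (adjusted p = 0.159, limma).

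Nek7 (ENSMUSG00000026393, chr1:138482875-138620141), the kinase that binds NLRP3 and is needed for its assembly, overlaps an antisense gene. It had 61.4, 54.2 and 49.0 TPM in untreated WT and 56.8, 52.7 and 51.1 TPM after LPS. In GILZ KO it had 58.7, 55.6 and 54.0 TPM and 50.8, 47.8 and 43.0 TPM, and in GILZ TG 53.0, 55.0 and 48.0 TPM and 50.4, 54.4 and 52.3 TPM. Treated and untreated libraries overlapped in WT and GILZ TG, and in GILZ KO the treated ones were lower. On TMM counts the log2 fold changes were 0.60, 0.39 and 0.64 (SE 0.07, adjusted p at most 0.00012, edgeR), but on log2(TPM + 1) they were -0.03, -0.25 and 0.01, so the direction turned in WT and GILZ KO. Relative to the median of all genes on the TPM scale they were 0.48, 0.27 and 0.52.

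Pycard (ENSMUSG00000030793, chr7:127989708-127993867) encodes the adaptor ASC. It was at 56.6, 55.6 and 71.3 TPM in untreated WT and at 44.2, 49.3 and 51.5 TPM after LPS, at 60.6, 60.3 and 60.4 TPM and 40.3, 39.5 and 43.2 TPM in GILZ KO, and at 50.3, 53.3 and 59.3 TPM and 43.8, 46.4 and 41.6 TPM in GILZ TG. On TPM, each treated group lay below its untreated group without overlap. The TMM counts gave the opposite sign, with log2 fold changes of 0.29 in WT (adjusted p = 0.0185), 0.08 in GILZ KO (adjusted p = 0.539) and 0.33 in GILZ TG (adjusted p = 0.00897, all edgeR, SE 0.10), against -0.33, -0.55 and -0.30 on log2(TPM + 1). Relative to the median of all genes, the TPM values were 0.18, -0.03 and 0.21. The WT call was lost without LPS replicate 2 or 3 and without untreated replicate 1 or 2 (adjusted p 0.0597 to 0.156, edgeR). For GILZ TG the call was lost without untreated replicate 1 (adjusted p = 0.059, edgeR). Without preparations 1 and 2 of GILZ TG the log2 fold change of Pycard there was 0.16.

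Casp1 (ENSMUSG00000025888, chr9:5298517-5307265) encodes the protease of the complex. Its level in untreated WT was 108.5, 103.4 and 103.5 TPM, and after LPS 551.3, 486.9 and 472.5 TPM. GILZ KO had 133.1, 117.6 and 117.3 TPM without and 481.3, 513.8 and 515.3 TPM with LPS, and GILZ TG 91.6, 90.8 and 106.1 TPM and 457.2, 411.1 and 509.6 TPM. Untreated GILZ KO libraries lay above those of the other genotypes, and after LPS the genotypes overlapped. Log2 fold changes were 2.89, 2.67 and 2.89 (SE 0.11, adjusted p at most 4.35e-13, edgeR).

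Casp4 (ENSMUSG00000033538, chr9:5308828-5336783), which encodes mouse caspase-11, lies downstream of Casp1 on the same strand. It was at 31.9, 34.2 and 29.6 TPM in untreated WT and at 302.2, 261.0 and 223.4 TPM after LPS. The other genotypes had 33.2, 30.1 and 29.2 TPM and 233.6, 238.2 and 236.6 TPM (GILZ KO), and 31.7, 31.0 and 35.1 TPM and 253.5, 233.3 and 265.7 TPM (GILZ TG). The genotypes overlapped in both treatments. Its log2 fold change was the largest of the 10 genes, at 3.63, 3.50 and 3.55 in WT, GILZ KO and GILZ TG (SE 0.11, adjusted p at most 3.07e-14, edgeR).

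Gsdmd (ENSMUSG00000022575, chr15:75862327-75867408) encodes gasdermin D. WT libraries were at 95.6, 97.8 and 95.2 TPM and rose to 187.9, 176.6 and 182.7 TPM, those of GILZ KO at 92.1, 94.0 and 100.3 TPM and 171.2, 187.3 and 194.0 TPM, and those of GILZ TG at 91.0, 81.4 and 104.3 TPM and 184.1, 162.4 and 174.3 TPM. All treated libraries were above all untreated ones, and the genotypes overlapped in both treatments. Log2 fold changes were 1.55, 1.59 and 1.55 (SE 0.09, adjusted p at most 8.28e-11, edgeR), and 0.92, 0.94 and 0.91 on log2(TPM + 1).

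**Figure D2:**
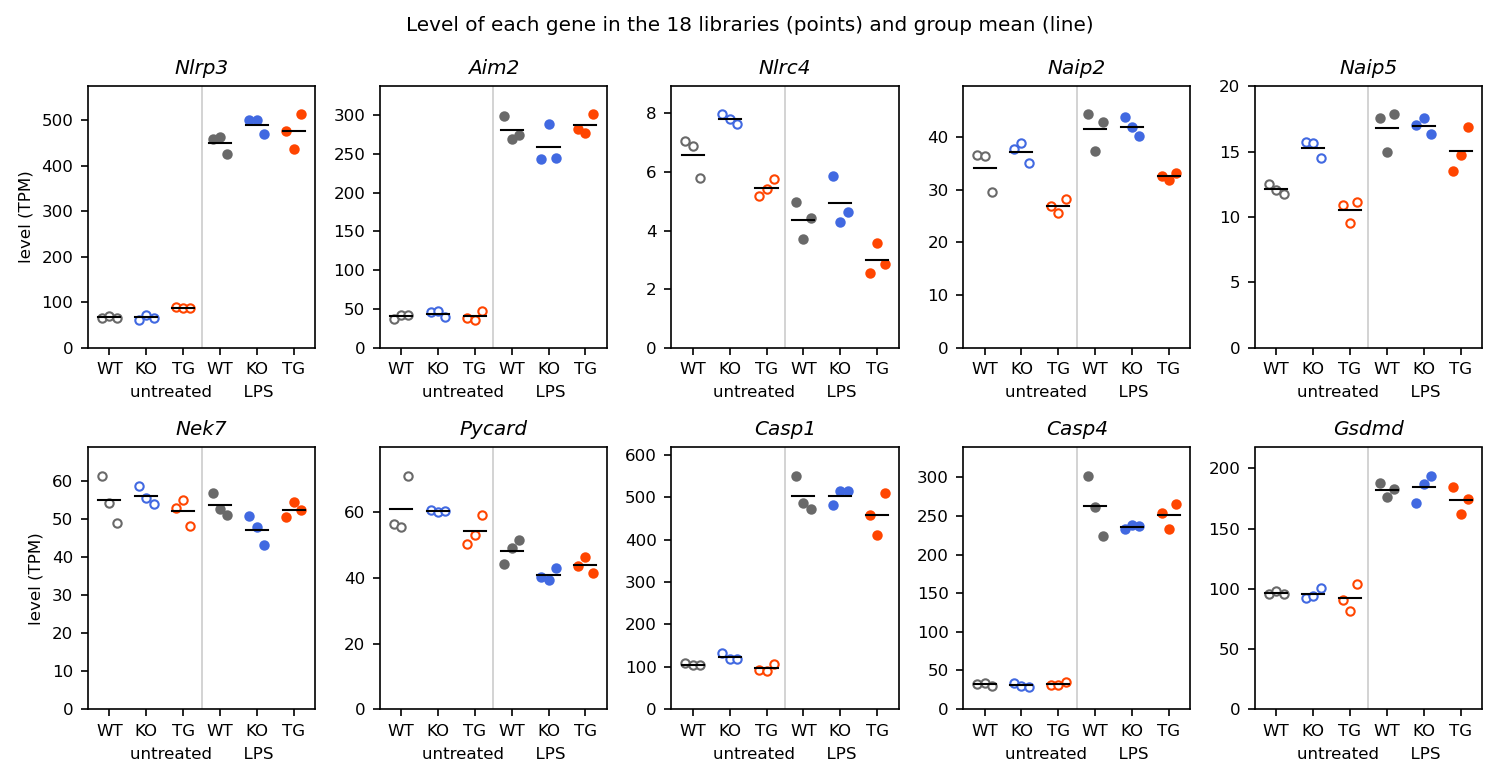
Level of each gene in TPM (linear y axis from 0) in the 3 libraries of each group, with open points for untreated and filled points for LPS libraries and a line at the group mean. Nlrp3, Aim2, Casp1, Casp4 and Gsdmd are higher in all LPS libraries than in all untreated ones, while Nek7, Pycard and Nlrc4 are level or lower on this scale, although Nek7 in all genotypes and Pycard in WT and GILZ TG were called higher on TMM counts.

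The transcripts most like 3 of these genes over the 18 libraries were listed among 9423 genes with a mean of at least 5 TPM, by Pearson's r of log2(TPM + 1). For Nlrp3 they were Tnf, Irak2, Ccl4, Slfn2 and Ccl3 (r 0.996 to 0.997). For Casp4 they were Ifi211, Ifi204, Nt5c3, Xaf1 and Ifi208 (r 0.998 to 0.999), and for Gsdmd Gch1, Stard3, Tmem229b, Hk3 and Snx10 (r 0.99 to 0.991). The libraries fell into treated and untreated ones, which set most of r, and these values are a description.

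Next, the genotypes were compared within each treatment, which asks whether GILZ alters the level of these transcripts before or after LPS. The 3 comparisons of a treatment share libraries in pairs, so their values are given side by side and are not independent. Between GILZ KO and WT no gene of the 10 differed, with or without LPS. Between GILZ TG and WT, Nlrp3 was higher in untreated GILZ TG, and none of the 10 passed after LPS. Between GILZ KO and GILZ TG, 5 genes differed without treatment, of which Casp1, Naip2, Naip5 and Nlrc4 were higher in GILZ KO and Nlrp3 was higher in GILZ TG, and Naip2 and Nlrc4 were higher in GILZ KO after LPS as well.

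In GILZ KO against WT, 0 of the 10 genes passed the test of edgeR without treatment (0.0951% of all genes did) and 0 after LPS (0.0822%). At an unadjusted p under 0.05 there were 3 in each treatment, beside 1211 of all 12621 genes without treatment and 1171 of 12164 after LPS. DESeq2 also called 0 and 0 of the 10. TPM did not overlap for 3 genes without treatment, where 17.2% of all genes did not, and for 3 after LPS, where 16.3% did not. The former were Naip5 (log2 fold change 0.30, 95% interval 0.14 to 0.45, adjusted p = 0.289), Nlrc4 (0.21, 0.03 to 0.38) and Casp1 (0.18, 0.01 to 0.35), all higher in GILZ KO. The latter were Pycard (-0.25, -0.42 to -0.08, adjusted p = 0.35), Nek7 (-0.19, -0.34 to -0.04) and Nlrp3 (0.18, 0.01 to 0.35). Over the 10 genes the intervals reached from -0.32 to 0.45 without treatment and from -0.42 to 0.50 after LPS, and the median log2 fold changes were 0.01 and -0.00, near those of all genes at -0.00 in both.

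In GILZ TG against WT without treatment, 1 of the 10 genes passed the test, beside 0.642% of all genes. Nlrp3 was higher in GILZ TG by a log2 fold change of 0.34 ± 0.06 (SE), which is 1.27-fold (adjusted p = 0.0377, edgeR), with all 3 libraries above those of WT. Naip2, Nlrc4 and Naip5 lay lower in GILZ TG without overlap but did not pass, with log2 fold changes of -0.36 (adjusted p = 0.0786), -0.28 (adjusted p = 0.156) and -0.21 (adjusted p = 0.211, edgeR). Of these 3, DESeq2 called Naip2 alone (adjusted p = 0.003). In all, 4 of the 10 genes did not overlap on TPM, against 14.9% of all genes. After LPS 0 of the 10 passed with edgeR (0.46% of all genes) and 1 with DESeq2, which was Naip2. Beside 1852 of all 12164 genes, 2 of the 10 had an unadjusted p under 0.05. These were Naip2 at -0.35 (adjusted p = 0.0629) and Nlrc4 at -0.55 (adjusted p = 0.137), the 2 genes without overlap, against 15.2% of all genes. Nlrp3 was no longer apart, as its treated libraries overlapped between GILZ TG and WT. The median over the 10 genes was -0.11 in both treatments.

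The call of Nlrp3 was lost without GILZ TG replicate 1 or 2 and without WT replicate 1 or 2 (adjusted p 0.0928 to 0.21, edgeR). Its log2 fold change in these fits was 0.31 to 0.36. Naip2, lower in GILZ TG, passed without GILZ TG replicate 3 (adjusted p = 0.0219) or WT replicate 3 (adjusted p = 0.0275), and after LPS without GILZ TG replicate 3 (adjusted p = 0.0119, edgeR). Without preparations 1 and 2 of GILZ TG the log2 fold change of Nlrp3 was 0.35. Those of Naip2, Nlrc4 and Naip5 were then -0.27, -0.19 and -0.11 without treatment, and those of Naip2 and Nlrc4 were -0.29 and -0.58 after LPS.

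In GILZ KO against GILZ TG without treatment, 5 of the 10 genes passed the test, beside 4.94% of all genes, and 6 did not overlap on TPM, beside 28.7%. Naip5 was higher in GILZ KO by 0.51 ± 0.07 (SE) on the log2 scale, or 1.42-fold (adjusted p = 0.00697, edgeR). Nlrc4 was higher by 0.49 ± 0.08 (adjusted p = 0.0138), Naip2 by 0.44 ± 0.08 (adjusted p = 0.0148) and Casp1 by 0.32 ± 0.08 (adjusted p = 0.0447). Casp1 did not pass with all 18 libraries in 1 fit (adjusted p = 0.0722, edgeR) or with only the libraries compared (adjusted p = 0.0621, edgeR). It was also lost without any 1 library except GILZ TG replicate 3 (adjusted p 0.0884 to 0.169, edgeR). Nlrp3 was lower in GILZ KO, at -0.35 ± 0.06 (adjusted p = 0.0163). Pycard did not overlap either but did not pass. The 2 groups were thus apart for both NAIPs and for Nlrc4, the protein they act through, while Aim2, Casp4, Gsdmd and Nek7 overlapped and did not pass. The median of the 10 genes was 0.10, against -0.00 over all genes.

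After LPS 2 of the 10 passed, beside 2.6% of all genes, and the same 2 did not overlap, beside 20.6%. Nlrc4 was higher in GILZ KO by 0.72 ± 0.15, or 1.64-fold (adjusted p = 0.0382), and Naip2 by 0.36 ± 0.07, or 1.28-fold (adjusted p = 0.0277, edgeR). With the replicate number as a block the adjusted p of Nlrc4 was 0.0621, and with limma on log2(TPM + 1) both calls were lost (adjusted p = 0.104 and 0.0545). The levels of Casp1, Naip5 and Nlrp3, apart without treatment, overlapped between both groups after LPS.

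These calls rest on few libraries. In the untreated comparison 1 of the genes was called without GILZ KO replicate 1 or GILZ TG replicate 2, 2 without GILZ KO replicate 2, 3 without GILZ KO replicate 3 or GILZ TG replicate 1, and 5 without GILZ TG replicate 3. In the LPS comparison 0 were called without any 1 of the GILZ KO libraries or without GILZ TG replicate 1 or 2 (adjusted p 0.0899 to 0.132 for Naip2 and 0.0521 to 0.179 for Nlrc4), and 3 without GILZ TG replicate 3. Leaving out preparations 1 and 2 of GILZ TG, whose stromal, B cell and neutrophil markers were high, leaves 1 GILZ TG library per treatment. Lost calls in that fit decide nothing and are not given. Without treatment the log2 fold changes were then 0.41 for Naip5, 0.40 for Nlrc4, 0.36 for Naip2, 0.16 for Casp1 and -0.36 for Nlrp3. With all libraries they were 0.51, 0.49, 0.44, 0.32 and -0.35. After LPS they were 0.75 for Nlrc4 and 0.29 for Naip2, against 0.72 and 0.36 with all libraries. Preparation 3, whose stromal markers were as low as those of WT but whose neutrophil-lineage markers were above them, lay below all GILZ KO libraries for Naip2, Nlrc4 and Naip5 without treatment and for Naip2 and Nlrc4 after LPS. The part of the other cell types in these values was not tested.

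**Figure D3:**
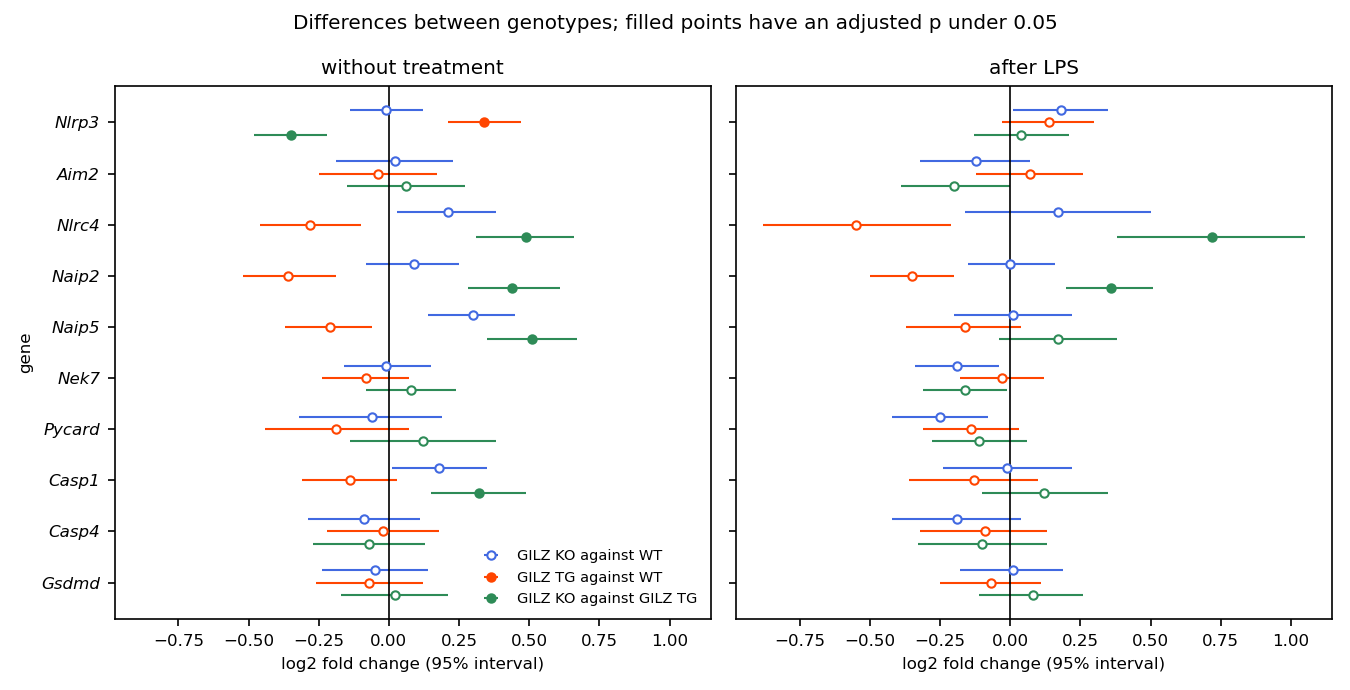
Log2 fold change (x axis) with its 95% interval for each gene in GILZ KO against WT, GILZ TG against WT and GILZ KO against GILZ TG, without treatment and after LPS. Filled points passed the test: Nlrp3 in GILZ TG against WT, 5 genes in GILZ KO against GILZ TG without treatment, and Naip2 and Nlrc4 after LPS.

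Whether the response to LPS itself differed between genotypes was tested as a difference of the responses. For GILZ KO against WT 0 of the 10 genes passed (0.0152% of all genes did). An unadjusted p under 0.05 was found for 838 of all 13169 genes and for 2 of the 10. These 2 were Naip5 (-0.32, adjusted p = 0.696) and Nek7 (-0.21, adjusted p = 0.784, edgeR). For GILZ TG against WT 0 passed (0.00759%), the closest being Nlrp3 at -0.21 (adjusted p = 1, edgeR). For GILZ KO against GILZ TG 0 passed (0.121%). An unadjusted p under 0.05 was found for 1306 of all 13169 genes and for 3 of the 10. These 3 were Nlrp3 (0.37, 95% interval 0.16 to 0.59, adjusted p = 0.164), Naip5 (-0.36, -0.63 to -0.08, adjusted p = 0.316) and Nek7 (-0.26, -0.47 to -0.05, adjusted p = 0.355, edgeR). DESeq2 called 1 of the 10 in this comparison, Nlrp3 (0.38, adjusted p = 0.0205), and 0 in the other 2. With edgeR Nlrp3 passed without GILZ TG LPS replicate 3 (0.44, adjusted p = 0.0467). With preparations 1 and 2 of GILZ TG left out, Nlrp3 was at 0.25, Naip5 at -0.48 and Nek7 at -0.41. The difference of Nlrp3 between untreated GILZ TG and GILZ KO was thus not seen after LPS, but the change in that difference did not pass the main test. Over the 10 genes and all 3 comparisons, the intervals of the differences reached from -0.64 to 0.59.

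The other genes of the pathway were taken from 4 lists with 45 genes, of which 41 were found and 32 were tested for LPS. On TMM counts 22 of these 32 were higher with LPS in each genotype, and 6, 7 and 6 were lower in WT, GILZ KO and GILZ TG, with medians of 0.72, 0.67 and 0.80, against -0.02 over all genes and the shares of 33.5%, 33.2% and 33.6% higher and 35.1%, 35.4% and 35.1% lower given above. With limma on log2(TPM + 1), 14, 13 and 16 of the 32 were called higher and 13, 13 and 12 lower, with medians of 0.08, 0.04 and 0.16. In TPM 5, 5 and 4 of the 22 were below 0, among them Ctsb, Hsp90ab1 and Txnip in all genotypes. Of the 7 other sensors tested, 3 were called higher on TMM counts in each genotype and 3, 4 and 3 lower, and in TPM 3, 2 and 3 were higher and 4 lower in each. Among the 6 caspases and pore formers 5 were higher on TMM counts but 3 in TPM, and Gsdme, a gasdermin cleaved by caspase-3, fell in all genotypes on both scales. Both caspase-1 substrates rose on both scales. Of 17 regulators 12 were higher and 2 lower on TMM counts in each genotype, whereas in TPM 6, 6 and 8 were higher and 8, 8 and 7 lower in WT, GILZ KO and GILZ TG.

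The 3 largest increases on average were those of Il1b, Gbp3 and Gbp2, the latter being guanylate-binding proteins that help to expose LPS from bacteria in the cytosol. Il1b was at 4.92 to 8.46 TPM in untreated WT libraries and at 3741 to 4802 TPM after LPS, and its log2 fold changes were 10.04, 10.11 and 9.96 in WT, GILZ KO and GILZ TG. For Gbp3 they were 8.71, 7.86 and 8.71, and for Gbp2 8.22, 7.70 and 8.76. The 3 largest decreases were those of Nlrp1b, a sensor activated by proteolytic cleavage (-1.64, -2.17 and -1.55), Panx1, a channel for ATP release (-1.48, -1.34 and -1.44), and Naip1 (-1.35, -1.79 and -0.74), which at 0.05 to 0.5 TPM was hardly expressed and did not pass in GILZ TG. All 6 genes had the same direction in TPM.

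**Figure D4:**
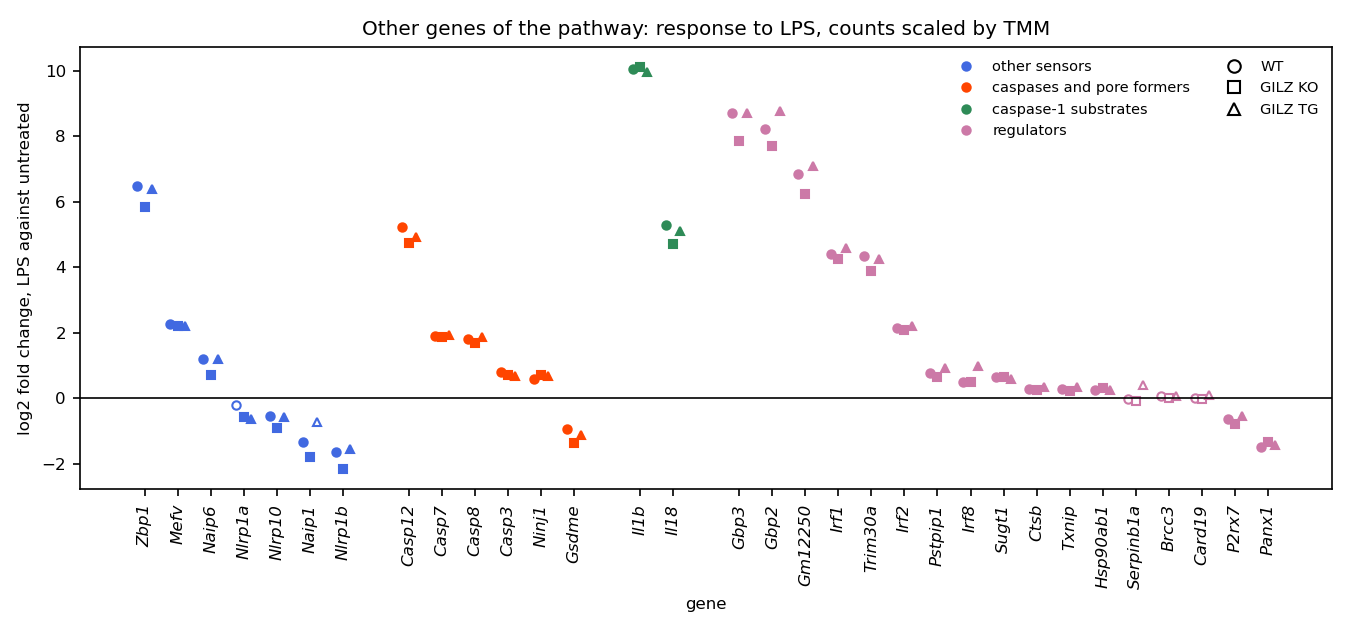
Log2 fold change after LPS (y axis) of the 32 other pathway genes tested, from counts scaled by TMM, coloured by list, with a symbol per genotype and open symbols where the test was not passed. Most lie above 0, led by Il1b, Gbp3 and Gbp2, but in TPM Ctsb, Hsp90ab1 and Txnip lie below 0 in all genotypes, Irf8 in WT and GILZ KO, Ninj1 in WT, Pstpip1 in GILZ KO and Sugt1 in GILZ TG.

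Between genotypes, 31 genes of these lists could be tested in each treatment. None passed in GILZ KO against WT or in GILZ TG against WT with edgeR, and none of 32 in any comparison of the responses. In GILZ KO against GILZ TG without treatment 5 passed, beside 4.94% of all genes. The sensors Naip6 (0.58 ± 0.08 SE, adjusted p = 0.0079), Nlrp1b (0.48 ± 0.11, adjusted p = 0.0383) and Nlrp1a (0.36 ± 0.09, adjusted p = 0.0472) were higher in GILZ KO, as was Trim30a (0.46 ± 0.09, adjusted p = 0.0247), known to restrain NLRP3. Panx1 was lower (-0.22 ± 0.05, adjusted p = 0.0437, edgeR), although its TPM overlapped. Without preparations 1 and 2 of GILZ TG the log2 fold changes were 0.48 for Naip6, Nlrp1b and Nlrp1a, 0.24 for Trim30a and -0.20 for Panx1. Naip6 shares many words with Naip5 and is uncertain for the same reason.

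In the same comparison after LPS 2 passed, beside 2.6% of all genes, and both had a higher level in GILZ TG. Irf1, an interferon-induced transcription factor known to raise Gbp genes, was at 355.1, 395.7 and 357.1 TPM in GILZ KO and at 526.7, 532.4 and 453.9 TPM in GILZ TG (log2 fold change -0.45 ± 0.09, adjusted p = 0.0323). Irf8, a factor known to drive transcription of the Naip genes, was at 81.5, 95.1 and 87.1 TPM and at 135.0, 141.2 and 117.0 TPM (-0.57 ± 0.11, adjusted p = 0.0285, edgeR). In both genes the groups did not overlap. Without preparations 1 and 2 of GILZ TG the log2 fold changes were -0.33 for Irf1 and -0.46 for Irf8.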

How the data were processed

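BMMs of 3 genotypes with and without LPS were sequenced in 18 libraries (1x 75 nt, poly(A)-enriched, from a directional kit). Per the labels and the study's methods, the authors checked reads with FastQC 0.11.2, mapped them to GRCm38 (mm10) with the grape-nf pipeline and tested them with DESeq2 1.40.2. The strand setting and annotation release are not given in the sources used here. The deposited expected counts are estimated reads per gene without normalization, and the deposited TPM values are scaled by transcript length and total. The authors' deposited comparison tables were used for gene symbols alone; their fold changes and p-values were not used. GENCODE M21 (GRCm38) gave coordinates, and RefSeq gave promoters.

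Expected counts were rounded, filtered by filterByExpr, scaled by TMM, and all genes were fitted in edgeR 4.0.16 (R 4.3.3; quasi-likelihood F-test) with Benjamini-Hochberg adjustment at 0.05. LPS effects and responses came from 1 fit of 18 libraries, and genotype effects from the 9 libraries of a treatment. Tests were checked on simulated counts in which few genes changed, in equal numbers up and down. That check does not bear on the scale of the LPS comparison, where most genes were called. With 3 libraries per group, p-values measure the spread between these preparations. Among the 10 genes, depth limits Nlrc4 most (123 to 442 reads per library). In GILZ TG all 3 pairs of same-numbered untreated and LPS libraries deviated together (correlation 0.266 to 0.605), so the numbers were taken to pair those libraries. In WT 1 of 3 pairs and in GILZ KO 0 of 3 had a correlation above 0.1, which leaves the pairing there undecided. Alternatives were DESeq2 1.42.0, its size factors, other filters, limma 3.58.1 on log2(TPM + 1) and log2(TPM + 0.1), a replicate block, leaving out each library, and other sets of libraries. Library totals without TMM, and leaving out preparations 1 and 2 of GILZ TG, were chosen after seeing the data. The genes and lists were chosen with earlier results of these data known. All 10 genes are named; other pathway genes are named if they passed between genotypes or were among the 3 largest changes with LPS in each direction. Gsdme and the pathway genes whose direction turned in TPM were named after their values were seen. Promoter motifs, stretches and 75-base words were searched in Python 3.11.15, and figures drawn with matplotlib 3.10.9.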

Additional observations from a re-analysis of the deposited data

How the results depend on the processing

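With LPS, the number of the 10 genes called stayed within 1.5 times of the main count under every alternative, though not their direction. In GILZ TG against WT without treatment, 2 of the 10 genes, Nlrp3 and Naip2, were called with DESeq2, without a filter on low counts and with all 18 libraries in 1 fit. With only the libraries compared 0 were called. After LPS 1, Naip2, was called with DESeq2, and 2, Naip2 and Nlrc4, without a filter and with all 18 libraries. In GILZ KO against GILZ TG after LPS, 0 were called with limma on log2(TPM + 1) or log2(TPM + 0.1), and with the replicate block 1 was called. DESeq2 called 1 gene in the LPS response of GILZ KO against GILZ TG. Leaving out preparations 1 and 2 of GILZ TG, chosen after seeing the data, leaves 1 GILZ TG library per treatment, so calls in that setting are not counted here. Leaving out single libraries gave 0 to 2 genes in GILZ TG against WT without treatment and 0 to 1 after LPS. In GILZ KO against GILZ TG it gave 1 to 5 without treatment, 0 to 3 after LPS and 0 to 1 for the response. The counts under these alternatives are given without the share of all genes called in the same setting. They therefore do not show whether the 10 genes were called more often than other genes there.

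The direction with LPS turned for 3 genes. For Pycard it was -0.33 in WT, -0.55 in GILZ KO and -0.30 in GILZ TG on log2(TPM + 1), -0.33, -0.56 and -0.30 on log2(TPM + 0.1), and -0.39, -0.56 and -0.35 with library totals without TMM factors. Nek7 was at -0.03 in WT and -0.25 in GILZ KO on both TPM scales, and with library totals at -0.08, -0.25 and -0.03 in the 3 genotypes. Nlrc4 in WT was at -0.50 on log2(TPM + 1), -0.59 on log2(TPM + 0.1), -0.64 with library totals and -0.00 without a filter, and between -0.07 and 0.13 without 1 library. In GILZ KO Nlrc4 was 0.00 with DESeq2 and with its size factors, and between -0.15 and 0.05 without 1 library. The median of all genes lay at -0.02 with TMM in each genotype, but at -0.70, -0.66 and -0.69 with library totals in WT, GILZ KO and GILZ TG.

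Between genotypes no pairing by replicate number was seen, as 2 of 18 pairs had a correlation above 0.1 of their deviations from the group mean. Between untreated and LPS libraries of the same number, the correlation was above 0.1 in 3 of 3 pairs of GILZ TG, 1 of 3 of WT and 0 of 3 of GILZ KO. A low correlation cannot show that 2 libraries came from different preparations, so the pairing in WT and GILZ KO is undecided. With the replicate block 9, 8 and 9 of the 10 genes were called for LPS in WT, GILZ KO and GILZ TG, as without it. In GILZ KO against GILZ TG after LPS, where 2 genes were called without the block, Nlrc4 lost its call with it (adjusted p = 0.0621, edgeR). The block changed no count of called genes in the other comparisons by more than 1.5 times. Of the values of single genes under the alternatives, 802 kept direction and side of the threshold, 59 lost and 20 gained a call, and 26 turned direction. The depth of the libraries limits Nlrc4 most among the 10 genes.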
